A study of Mus musculus with 6 samples.

Results

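Lipoxygenases and prostaglandin synthases are enzymes of the pathways that turn polyunsaturated fatty acids into eicosanoids and other oxidised lipids. Here 9 of their genes are described by name: Aloxe3, Alox12, Alox12b, Alox12e, Alox15 and Alox5 among the lipoxygenases, and Ptgs1, Ptgs2 and Ptges among the prostaglandin synthases. Aloxe3 drew attention because its level was among those that fell in an earlier look at these same libraries, and the other genes were added as its family and pathway, with their values in the same comparison already known. Of the 9 genes, 7 had a row among the 15973 protein-coding genes compared, and 5 (Aloxe3, Alox12b, Ptgs1, Ptgs2 and Ptges) were among the 12572 genes that passed the filter on low counts. The count matrix itself held 53379 gene IDs.

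RNA-Seq was carried out on 4T1-T cells, a single VM-proficient sub-clone of the mouse mammary carcinoma line 4T1, where VM is vasculogenic mimicry, the formation of vessel-like channels by tumor cells. All cells were starved of serum overnight in Opti-Mem with 0.3% BSA, given 10 ug/mL of acetylated low-density lipoprotein (acLDL) carrying a green dye for 4 h, and returned to growth medium for 1 h. A cell sorter then took the brightest 25% (acLDL-high) and the dimmest 25% (acLDL-low), so that both groups had received the label and neither was an untreated control. There were 3 libraries in each group, labelled replicates 1 to 3, and the labels do not say whether each number stands for a separate occasion. Uptake of acLDL is a property of endothelial cells and some macrophages, and the comparison asks how tumor cells with more of it differ from their neighbours.

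Cyclooxygenases convert arachidonic acid, released from membranes by phospholipases, into prostaglandin H2, and terminal synthases turn that into prostaglandin E2 and the other prostanoids. Cyclooxygenase-1, the product of Ptgs1, is known as the constitutive form and cyclooxygenase-2, the product of Ptgs2, as the inducible form, often raised in tumors. Lipoxygenases instead insert oxygen at a set carbon of the fatty acid to give hydroperoxides, which feed leukotriene synthesis in white blood cells and barrier lipids in the epidermis.

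The starts of the 3 prostaglandin synthase genes are shown because these genes were the ones present at a substantial level. Each line gives 280 bases of GRCm38.p6 from RefSeq, from 250 bases before the RefSeq start to 30 bases after it, 5′ to 3′ on the gene's own strand. For Ptges this window lies inside the longer GENCODE gene used for counts and exon length below, so the 2 annotations start it at different places. Windows of 300 bases were searched on both strands for TGACG (the core of a cAMP response element), for the E-box CACGTG, for the TATA box TATAAA, for the Sp1 box GGGCGG, and for the NF-kB decamer and the AP-1 site. Capitals mark matches to TGACG or CACGTG.
Ptgs2 (chr1:150099781-150100060, plus strand): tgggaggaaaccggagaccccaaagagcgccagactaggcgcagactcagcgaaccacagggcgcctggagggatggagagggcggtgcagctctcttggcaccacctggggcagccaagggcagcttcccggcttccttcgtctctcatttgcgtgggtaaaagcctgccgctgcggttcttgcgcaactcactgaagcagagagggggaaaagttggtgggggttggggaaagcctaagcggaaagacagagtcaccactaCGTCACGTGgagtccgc
Ptgs1 (chr2:36230176-36230455, plus strand): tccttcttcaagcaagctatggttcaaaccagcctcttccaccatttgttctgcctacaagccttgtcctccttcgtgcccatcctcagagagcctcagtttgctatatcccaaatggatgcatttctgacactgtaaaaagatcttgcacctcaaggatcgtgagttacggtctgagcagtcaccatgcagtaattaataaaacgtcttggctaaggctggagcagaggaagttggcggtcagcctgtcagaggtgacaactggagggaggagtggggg
Ptges (chr2:30903268-30903547, minus strand): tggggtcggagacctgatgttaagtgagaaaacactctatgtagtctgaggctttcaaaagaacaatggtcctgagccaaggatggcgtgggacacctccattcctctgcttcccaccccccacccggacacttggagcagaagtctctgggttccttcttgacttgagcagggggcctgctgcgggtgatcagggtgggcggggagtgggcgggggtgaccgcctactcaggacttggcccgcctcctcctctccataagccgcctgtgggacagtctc
In Ptgs2 the capitals cover a TGACG match on the opposite strand that begins at base 13 after the RefSeq start and a CACGTG match that begins at base 16, and the 2 matches overlap. Where transcription of these genes begins in these cells was not tested. TGACG was present in 20.8% and CACGTG in 7.15% of the 32851 windows of the same length. The Ptgs2 window also held 1 GGGCGG, 170 bases before the start, and the Ptges window held 2, which begin 53 and 42 bases before it, against 35.7% of all windows with at least 1. None of the 6 motifs was found in the Ptgs1 window, which says only that these letters are not in it. TATAAA (13.6% of windows), the NF-kB decamer (8.46%) and the AP-1 site (5.20%) were found in none of the 3 windows. Sequence more than 250 bases before the RefSeq starts was not searched, so these absences hold for the windows only. The promoter table matched 7 of the 9 genes, and Aloxe3 and Alox15 were not among them.

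The libraries held between 70263372 and 94216786 counts, of which 98.4 to 98.7% lay in protein-coding genes. Levels are given in CPM, the counts scaled to a common library size, and 3 counts, taken as the floor of detection in 1 library, came to 0.0323 to 0.0429 CPM. Among low values over the whole matrix a count of 2 occurred 4522 times and a count of 1 only 836 times, so that counts near the floor rest on fewer independent fragments than their number. The markers of epithelial cells were all expressed (6 of 6 tested, summed level 2958 to 4978 CPM in acLDL-low and 3258 to 5185 CPM in acLDL-high libraries, none called). Cells that are rich in these enzymes left little trace, with 4 of 6 mast cell markers and 4 of 7 neutrophil markers at 0 counts in all libraries and no library above 0.423 CPM for either list. Platelet markers summed to 3.24 to 7.27 CPM in acLDL-low and 2.93 to 5.46 CPM in acLDL-high libraries, mostly from Itga2b, with Gp1ba at 0. Of the 10 macrophage markers, Adgre1 and Tyrobp were at 0 and the summed level was 19.2 to 21.6 CPM in acLDL-low and 20.1 to 24.4 CPM in acLDL-high libraries. Of the 4 that were tested, Cd14 was called higher in acLDL-high cells (log2 fold change 0.32 ± 0.07 SE, edgeR adjusted p = 0.0246). The others were not called, with Cd68 lower (-0.28 ± 0.11 SE, edgeR adjusted p = 0.201) and Mrc1 (0.30 ± 0.17, 0.380) and Ptprc (0.83 ± 0.69, 0.561) higher. The part of Cd14 in the results below was not tested. Endothelial markers summed to 0.607 to 0.753 CPM in acLDL-low and 0.339 to 0.624 CPM in acLDL-high libraries, with Emcn at 0.

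Prostaglandin synthases stood far above lipoxygenases in these cells. Per kilobase of exon, the mean level over the 6 libraries was 363 CPM for Ptgs2, 17.7 CPM for Ptges, 8.06 CPM for Ptgs1, 0.695 CPM for Aloxe3 and 0.050 CPM for Alox12b. Ranked by this measure among the 12572 genes, Ptgs2 lay between 34th and 142nd in every library, which puts it with the most abundant transcripts of the cell. Ptgs1 lay between 4492nd and 6263rd, in the middle of the range, and Aloxe3 between 9960th and 10783rd. Ptges moved furthest in rank, from 1607th to 6386th. In replicate 2 its level per kilobase came close to that of Ptgs1, at 6.71 against 6.32 CPM in the acLDL-low library and 6.06 against 7.87 CPM in the acLDL-high one, where the order of the 2 genes turned. The other neighbours in the order Ptgs2, Ptges, Ptgs1, Aloxe3, Alox12b kept their places in every library.

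**Figure D1:**
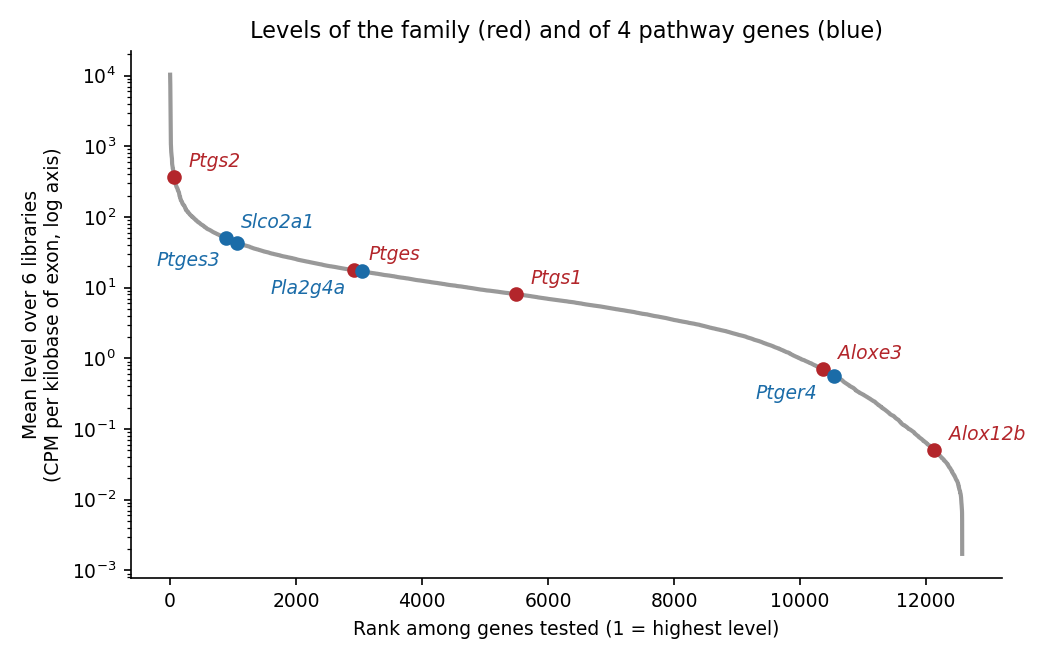
Mean level of every tested gene over 6 libraries, in CPM per kilobase of exon on a log axis, against its rank among 12572 genes (grey line), with the 5 tested family members in red and 4 pathway genes in blue. Ptgs2 sits near the top of the curve at 363, Ptges and Ptgs1 in its middle at 17.7 and 8.06, and Aloxe3 and Alox12b on its falling tail at 0.695 and 0.050.

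Ptgs2 (ENSMUSG00000032487, chr1:150100031-150108227, GRCm38) was present at 878, 2378 and 960 CPM in acLDL-low replicates 1, 2 and 3, and at 1332, 3001 and 1426 CPM in the matching acLDL-high libraries. Each acLDL-high library was above its acLDL-low partner, while the 2 groups overlapped, as both replicate 2 libraries were far above the rest. The transcript alone took 0.0915 to 0.283% of all counts in a library. The group means were 1406 ± 843 CPM (SD, n = 3) in acLDL-low and 1920 ± 937 CPM in acLDL-high cells, a fitted difference of 0.50 ± 0.06 (log2, SE), or 1.42-fold, with the replicate number held as a block.

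Ptgs1 (ENSMUSG00000047250, chr2:36230426-36252272), the gene of cyclooxygenase-1, was present at 27.1, 24.6 and 30.7 CPM in acLDL-low replicates 1 to 3 and at 33.5, 30.6 and 41.4 CPM in the acLDL-high libraries. Its replicates lay closer together than those of Ptgs2, and the groups met at about the same level, in acLDL-low replicate 3 and acLDL-high replicate 2. The means were 27.4 ± 3.07 and 35.2 ± 5.63 CPM (SD, n = 3), and the 3 differences within replicates were 0.30, 0.32 and 0.43 (log2), for a fitted difference of 0.35 ± 0.05 (SE), or 1.28-fold. An antisense gene, Gm43621, shares 148 exon bases with Ptgs1 and had 0 counts in all 6 libraries.

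Per kilobase, Ptgs2 exceeded Ptgs1 by 27.5, 82.2 and 26.6 times in acLDL-low replicates 1 to 3 and by 33.8, 83.3 and 29.2 times in the acLDL-high libraries. Cells with high and low uptake thus both carried mainly the inducible cyclooxygenase transcript, and replicate 2 did so the most.

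Ptges (ENSMUSG00000050737, chr2:30889471-30929863) encodes the membrane-bound, inducible prostaglandin E synthase that works downstream of cyclooxygenase-2. Its level was 65.9, 26.4 and 92.0 CPM in acLDL-low replicates 1 to 3 and 91.7, 23.8 and 117 CPM in the acLDL-high libraries. The groups overlapped throughout, and replicate 2 was the lowest in both of them, opposite to Ptgs2. The differences within replicates were 0.48, -0.15 and 0.35 (log2), so that replicate 2 alone went down, and the fitted difference was 0.25 ± 0.08 (SE) between means of 61.4 ± 33.0 and 77.6 ± 48.3 CPM (SD, n = 3).

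**Figure D2:**
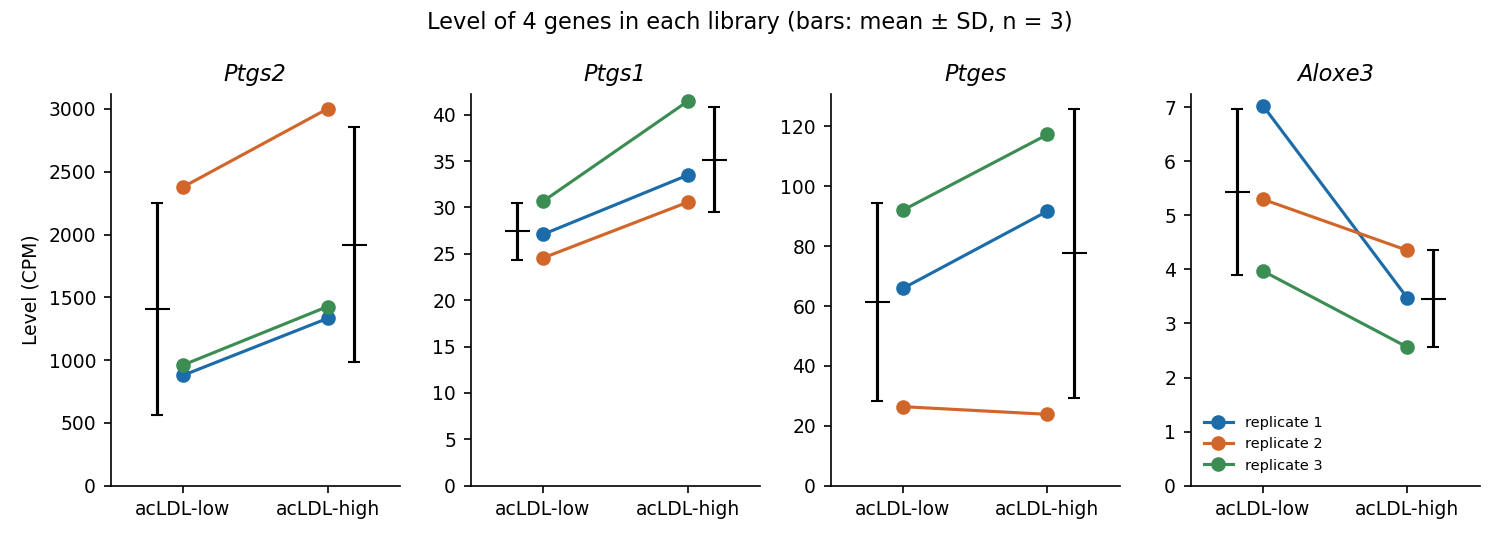
Level in CPM of Ptgs2, Ptgs1, Ptges and Aloxe3 in each acLDL-low and acLDL-high library, with a line joining the 2 libraries of a replicate number and black bars for the mean ± SD of each group (n = 3). All 3 lines rise for Ptgs2 and Ptgs1, all 3 fall for Aloxe3, and for Ptges replicate 2 lies at 26.4 and 23.8 CPM, below the others.

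Among the lipoxygenases, Aloxe3 (ENSMUSG00000020892, chr11:69125896-69149115), the epidermal enzyme that isomerises hydroperoxides made by Alox12b, was the only one above 1 CPM. Its level was 7.03, 5.30 and 3.97 CPM in acLDL-low replicates 1 to 3 and 3.47, 4.35 and 2.56 CPM in the acLDL-high libraries, from 238 to 532 counts each. Every acLDL-high library was below its partner, by 1.01, 0.28 and 0.63 on the log2 scale, and the groups overlapped across replicates. The means were 5.43 ± 1.54 and 3.46 ± 0.896 CPM (SD, n = 3), and the fitted difference was -0.65 ± 0.13 (log2, SE), or 0.639-fold.

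Alox12b (ENSMUSG00000032807, chr11:69156989-69169792), which makes the substrate of the Aloxe3 enzyme in skin, lies 7874 bases from Aloxe3 on the same strand and was nearly silent. It had 10, 8 and 6 counts in acLDL-low replicates 1 to 3 and 13, 4 and 18 counts in the acLDL-high libraries, or 0.0556 to 0.194 CPM. No direction was shared by the 3 replicates (0.26, -0.62 and 0.98 on the log2 scale), and the fitted difference of 0.35 carried an SE of 0.56.

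The remaining lipoxygenases lay at or near the floor. Alox15 (chr11:70344152-70352031), the 12/15-lipoxygenase of macrophages, had 7, 0 and 2 counts in acLDL-low and 2, 3 and 6 counts in acLDL-high libraries. Alox12e (chr11:70315610-70322628), an epidermal lipoxygenase, had 0 counts in the 3 acLDL-low libraries and 4, 2 and 2 counts in the acLDL-high libraries, too few at this depth for a fold change. Alox12 (chr11:70241457-70255353), the platelet enzyme, and Alox5 (chr6:116410077-116461178), which starts leukotriene synthesis, had 0 counts in every library. That is below the floor of 3 counts, which was at most 0.0429 CPM in any library. The true limit is looser, as counts near the floor rest on fewer fragments than their number.

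The differences between acLDL-high and acLDL-low cells in these genes are given as a description, since the genes were chosen with this comparison in view. In the edgeR fit (quasi-likelihood F test, Benjamini-Hochberg adjusted over all genes), 4.75% of the 12572 genes passed an adjusted p of 0.05, 3.43% higher and 1.32% lower in acLDL-high cells, and of the 5 tested members Ptgs1 and Ptgs2 passed as higher and Aloxe3 as lower, while Alox12b and Ptges did not pass. Nothing is read from these counts. The median log2 difference was 0.353 over the 5 members and 0.00168 over all genes, and 3 of the 5 members moved one way in all 3 replicates against 40.4% of all genes. In bulk RNA, fewer expressing cells and less RNA per cell cannot be told apart. Without replicate 3, Ptgs1 (adjusted p = 0.0602) and Aloxe3 (0.154) did not pass the edgeR test, nor did Aloxe3 without replicate 1 (0.0771). Ptges had an edgeR adjusted p of 0.129 in the main fit and passed with no low-count filter (log2 difference 0.25, adjusted p = 0.0135). It also passed without replicate 2 (0.41, adjusted p = 2.22e-10), but that fit leaves out the only pair in which Ptges fell. In DESeq2, which shrinks fold changes, the log2 differences of Aloxe3 and Ptges were -0.28 and 0.11 (DESeq2 adjusted p = 0.0151 and 0.646). With the replicate number left out of the model 0 of 12329 genes passed in edgeR, with 45 at an unadjusted p under 0.05.

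**Figure D3:**
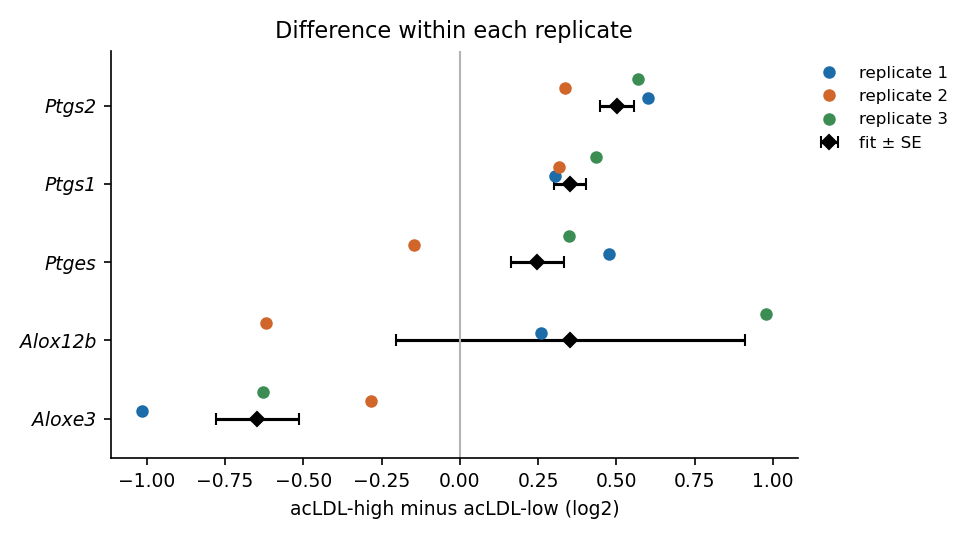
Difference between acLDL-high and acLDL-low cells on the log2 scale for the 5 tested members, within each replicate (coloured points) and fitted over all 3 (black, ± SE). The points of Ptgs2 and Ptgs1 all lie to the right of 0 and those of Aloxe3 to the left, while Ptges and Alox12b have replicate 2 on the other side from the rest.

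The choice of genes did not use the differences between replicate numbers. The range over 3 replicate numbers exceeded the fitted difference between the sorted populations for each tested member but Aloxe3, by the most for Ptges and Ptgs2. A range over 3 values tends to be wider than a difference between 2, so the measures are not alike. Ptges differed by 2.05 on the log2 scale between its highest and lowest replicate number, a 4.14-fold range, with the lowest level in replicate 2 (edgeR adjusted p = 1.47e-08). Ptgs2 differed by 1.30, a 2.47-fold range, with the highest level in replicate 2 (adjusted p = 4.71e-09). Only 3.56% of all tested genes had a wider range than Ptges and 10.9% a wider one than Ptgs2. Aloxe3 followed with a range of 0.63 (adjusted p = 0.00514), lowest in replicate 3, and Ptgs1 with 0.38 (adjusted p = 0.000325), lowest in replicate 2. Alox12b, at its few counts, ranged over 0.78 with an adjusted p of 0.451. The median range over all genes was 0.453, and 78.0% of them passed the same test, so that the 4 of 5 members that passed are no more than the background share would give. Some of these calls rest on 1 replicate number, since the edgeR adjusted p was 0.0736 for Ptgs2 without replicate 2 and 0.662 for Aloxe3 without replicate 3. The 2 libraries of a number are an acLDL-low and an acLDL-high population and not replicates of one group, so the test compares these 3 pairs of libraries.

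Relative to Ptges, Ptgs2 stood 11.4, 77.4 and 8.96 times higher per kilobase in acLDL-low replicates 1 to 3 and 12.5, 108 and 10.4 times higher in the acLDL-high libraries. The ratio of the 2 transcripts was thus far higher in replicate 2 than in replicates 1 and 3, which lay close to each other in both groups. Across the 6 libraries, which fall into 3 pairs by replicate number, the log2 levels of the 2 genes had a Pearson correlation of -0.80, and those of Ptgs1 and Aloxe3 one of -0.90, both given as descriptions.

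**Figure D4:**
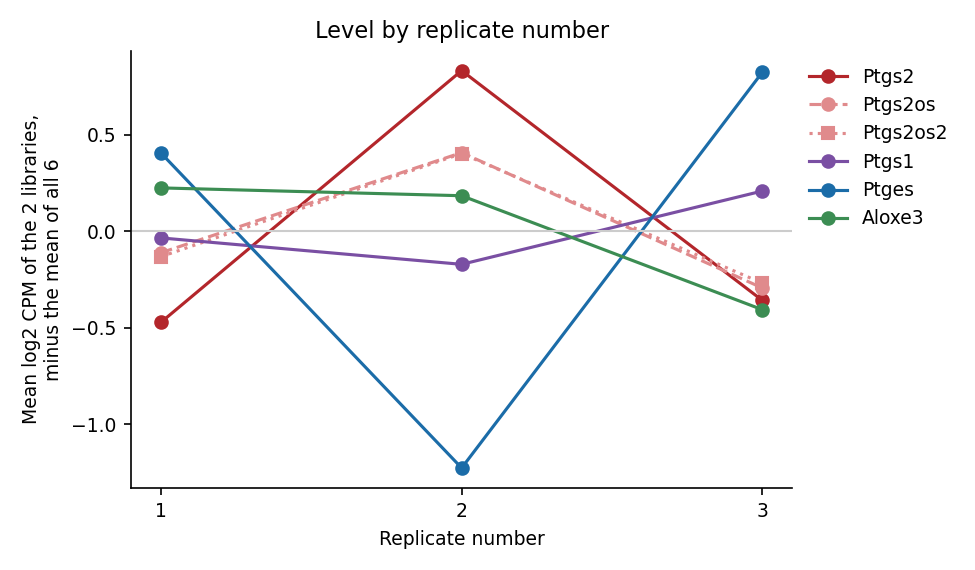
Mean log2 CPM of the 2 libraries of each replicate number, relative to the mean of all 6, for 4 members and for the noncoding genes Ptgs2os and Ptgs2os2. Ptgs2 and both noncoding genes are highest in replicate 2, where Ptges is lowest, and Ptges spans 2.05 on this scale.

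The genes whose levels over the 6 libraries were most like each member, out of 10537 protein-coding genes with an average log2 CPM of at least 1, are given as a description over libraries that fall into 3 pairs by replicate number. They were Kntc1, Cxcl10 and Myef2 for Ptgs2 (Pearson r 0.998, 0.998 and 0.994) and Map3k5, Flt1 and F13a1 for Ptges (r 1.000, 0.999 and 0.998). For Ptgs1 they were Mthfsl, Ets2 and Btbd10 (r 0.987, 0.985 and 0.972), and for Aloxe3 they included Hs1bp3 and Tsc1 (r 0.995 and 0.989). As many as 605 genes had an r above 0.95 with Ptges and 238 with Ptgs2, against 13 with Ptgs1 and 21 with Aloxe3.

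The surroundings of the family were described with 91 further genes, of which 90 were in the matrix, 13 had no count and 54 were tested. Besides eicosanoid synthesis, transport and reception, the 91 include 13 genes of the epidermal pathway. They also include 10 of polyunsaturated lipid supply and hydroperoxide reduction. In acLDL-high cells 3 of the 54 were higher and none was lower, or 5.56% against the 4.75% of all genes, which is close to the background. The median log2 difference of the 54 was 0.0285.

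Of 19 genes of arachidonate release, 13 were tested and none was called. Pla2g4a, the cytosolic phospholipase that releases arachidonic acid, had the most counts of the 13, with 103 ± 10.2 CPM in acLDL-low and 114 ± 17.8 CPM in acLDL-high cells (SD, n = 3), with a log2 difference of 0.14 ± 0.04 (SE, edgeR adjusted p = 0.100). Among 8 tested genes of polyunsaturated lipid supply and hydroperoxide reduction, Acsl4, which couples arachidonic acid to coenzyme A, was called higher. It stood at 376, 290.5 and 533 CPM in acLDL-low replicates 1 to 3 and at 454, 318 and 652 CPM in the acLDL-high libraries. Each acLDL-high library was above its partner, with overlapping groups and a log2 difference of 0.23 ± 0.05 (SE, edgeR adjusted p = 0.0128; 0.134 without replicate 3).

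Of 5 tested terminal synthases none was called, and the one with the most counts was Ptges3, a cochaperone also known as cytosolic prostaglandin E synthase, at 96.8 ± 16.9 and 94.9 ± 11.4 CPM (SD, n = 3; log2 difference -0.02 ± 0.04 SE, adjusted p = 0.847). Transcripts of the prostacyclin and thromboxane synthases (Ptgis, 9 counts, and Tbxas1, 13 counts over all libraries) were near the floor. Of 5 tested genes of transport and breakdown none was called. Slco2a1, the prostaglandin uptake transporter, had the most counts of all 54 pathway genes, at 468 to 983 CPM over the 6 libraries (log2 difference 0.04 ± 0.05 SE, adjusted p = 0.756). Hpgd, the dehydrogenase that inactivates prostaglandin E2 after uptake, had 0 counts in every library, below the floor. Abcc4, which exports prostaglandin E2, had 48.1 and 53.2 CPM in the 2 groups (log2 difference 0.14 ± 0.05 SE, adjusted p = 0.142). Hpgd, Abcc4 and the synthases near the floor were picked out after their values were seen.

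Of 14 eicosanoid receptors, 3 were tested (Ptger1, Ptger4 and Tbxa2r) and 4 had no count at all. Ptger4, the EP4 receptor for prostaglandin E2 that signals through cAMP, was higher in acLDL-high cells. Its level was 4.82, 2.69 and 1.91 CPM in acLDL-low replicates 1 to 3 and 6.62, 3.17 and 3.23 CPM in the acLDL-high libraries. All 3 replicates rose, the groups overlapped, and the log2 difference was 0.48 ± 0.12 (SE, edgeR adjusted p = 0.0453). Leaving out replicate 1 or 3 gave adjusted p = 0.115 or 0.307, and DESeq2 with the replicate block and shrunken fold changes gave a log2 difference of 0.21 (adjusted p = 0.134). Tbxa2r and the other prostaglandin E2 receptors were picked after their values were seen. The latter stood at 3.30 and 3.09 CPM in the 2 groups for Ptger1 (log2 difference -0.07 ± 0.13 SE, edgeR adjusted p = 0.831), at 2 counts over all libraries for Ptger2 and at 0 for Ptger3.

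Among 10 leukotriene and lipoxygenase partners, 6 were tested and 1 was called. That was Mgst2, a microsomal glutathione transferase that can form leukotriene C4, at 3.86, 2.59 and 5.21 CPM in acLDL-low replicates 1 to 3 and 4.94, 3.46 and 6.83 CPM in the acLDL-high libraries. Every acLDL-high library exceeded its partner by a similar step, for a log2 difference of 0.39 ± 0.10 (SE, edgeR adjusted p = 0.0453), while the groups overlapped. The adjusted p was 0.0876 without replicate 1 and 0.286 without replicate 3. In DESeq2 with the replicate block, which shrinks fold changes, the log2 difference was 0.20 (adjusted p = 0.176). Lta4h, the leukotriene A4 hydrolase, had the most counts of this list, at 77.9 ± 15.6 and 81.7 ± 15.8 CPM (SD, n = 3; log2 difference 0.07 ± 0.04 SE, adjusted p = 0.398). Alox8, the lipoxygenase next to Alox12b on chromosome 11, had 6, 0 and 2 counts in acLDL-low and 10, 6 and 10 counts in acLDL-high libraries, was not tested and was picked after its values were seen.

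The epidermal pathway in which Aloxe3 acts was represented by 13 genes, of which 9 were tested and none was called. The one with the most counts, Ugcg, a glucosylceramide synthase that serves most cell types, stood at 81.6 ± 2.41 and 82.0 ± 4.06 CPM (SD, n = 3; log2 difference 0.01 ± 0.05 SE, adjusted p = 0.967). The 4 genes that did not pass the filter had 30 counts (Abca12), 2 (Cyp4f39), 14 (Pnpla1) and 0 (Sdr9c7) over all libraries. Of the other tested ones, Elovl1 had 35652 counts, Abhd5 17257, Slc27a4 11798 and Nipal4 5274. Elovl4 had 532, Tgm1 253, Cers3 234 and Ephx3 108, and all of these genes were picked after their values were seen. Abhd5 (edgeR adjusted p = 0.138) was called with no low-count filter and without replicate 2. Differentiated keratinocyte markers had Flg, Dsg1a and Casp14 at 0, and their summed level was 5.34 to 16.4 CPM in acLDL-low and 4.08 to 14.96 CPM in acLDL-high libraries. Most of it came from Cdsn, except in acLDL-high replicate 3, where Krt10 stood at 2.465 CPM and Cdsn at 1.614 CPM. Of 5 tested cytochrome P450 and epoxide hydrolase genes none was called, with the most counts for Cyp4f16, at 12.1 ± 1.24 and 12.1 ± 2.11 CPM (SD, n = 3; log2 difference -0.01 ± 0.07 SE, adjusted p = 0.972).

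**Figure D5:**
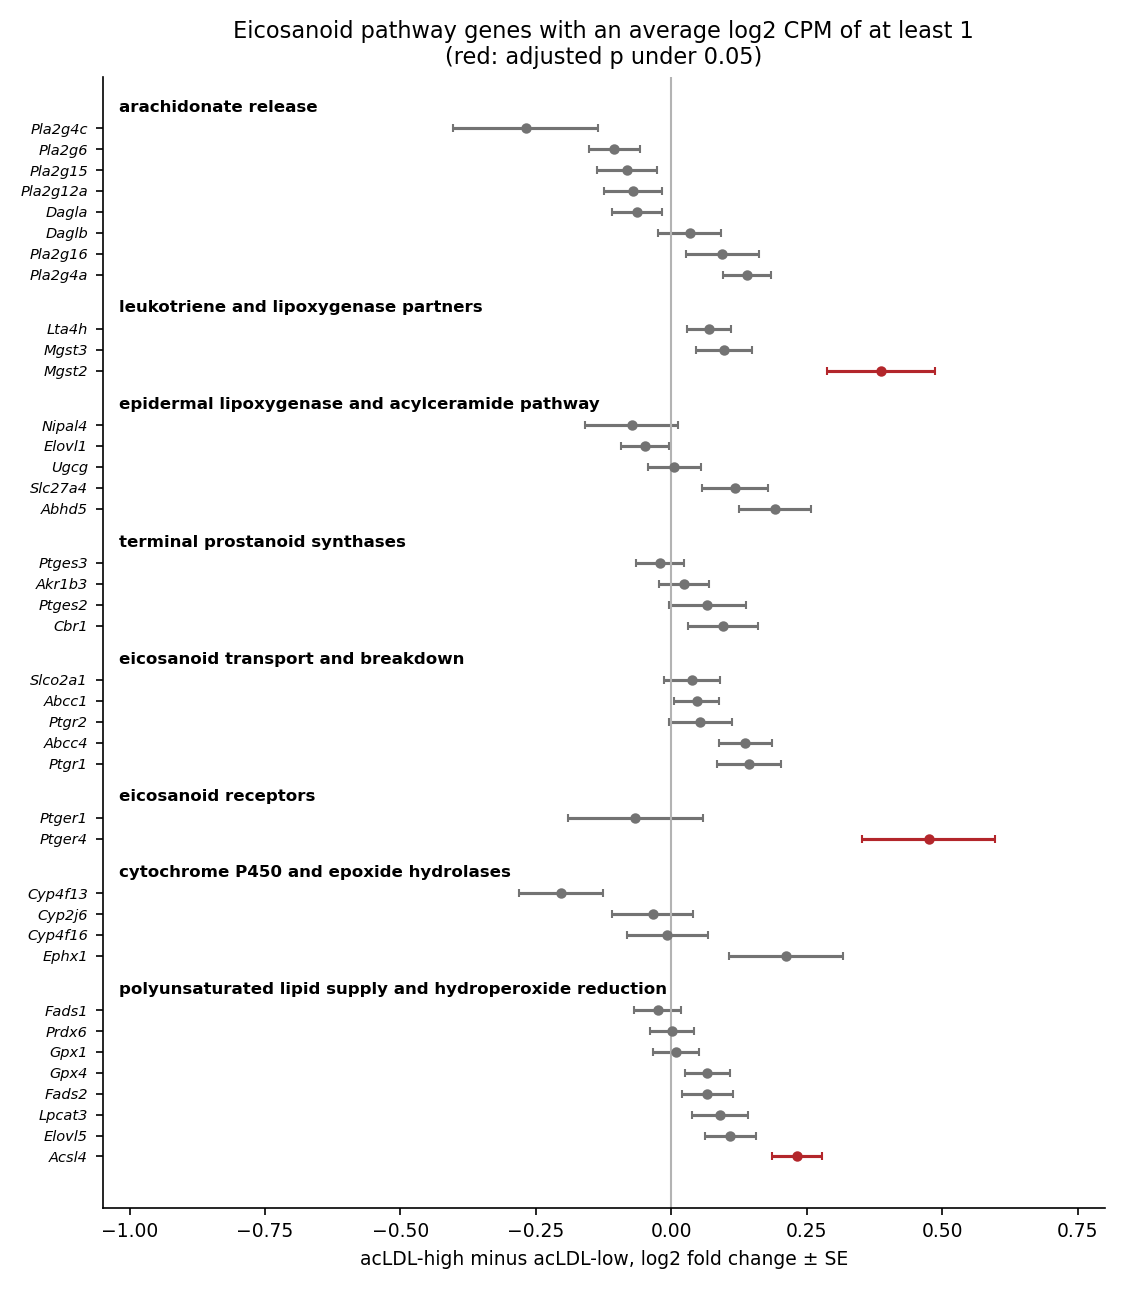
Log2 difference between acLDL-high and acLDL-low cells with its SE for the 39 pathway genes with an average log2 CPM of at least 1, grouped by step, with genes of an adjusted p under 0.05 in red. Only Acsl4, Ptger4 and Mgst2 are red, at 0.23, 0.48 and 0.39, and most other genes lie near 0.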

How the data were processed

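The authors aligned paired reads to mm10, counted them per gene and deposited raw counts without normalization. STAR 2.5.2a, featureCounts 1.4.3-p1 and DESeq2 1.20.0 are named in the submitters' processing notes, while the annotation release and strand setting of the counting are not given in the sources used here. A deposited table of the authors' own DESeq2 comparison (fold changes and p-values) served only for its protein-coding gene IDs and symbols.

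Counts were fitted with edgeR 4.0.16 (R 4.3.3): filterByExpr, TMM scaling, quasi-likelihood F test and Benjamini-Hochberg adjustment over all genes tested, with an adjusted p threshold of 0.05. The replicate number was a block, as the study's methods include replicate information. Deviations of same-numbered libraries from their group means correlated at 0.795, 0.846 and 0.799, and those of other pairs at -0.557 to -0.0882. No library was a copy of another. With the block, p-values measure the spread left between these libraries after replicate number and sorted population are fitted. No label says whether libraries of one number came from one culture. The SE is the log2 difference divided by the square root of F, and differences within replicates use log2 CPM with a prior count of 2. Positions and exon lengths are those of GENCODE M21, which held 53274 of 53379 gene IDs when versions were ignored.

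The members and gene lists were chosen with earlier results of these data known. Named genes are all members, the called pathway genes, the tested gene of each list with the highest mean CPM, for each member with a mean log2 CPM of 1 or more the 3 genes most like it, and noncoding genes whose exons overlap a member. Genes named outside this rule are marked as such. One gene that this rule names is not reported here. The scripts were tested on simulated data. The alternatives tried were no block, DESeq2 1.42.0 and its size factors, other filters, all genes of the matrix, a stricter threshold and each replicate left out. Floors cover counting error only.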

Additional observations from a re-analysis of the deposited data

Results flagged for a closer look

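Counts were also present in rows of the count matrix that the protein-coding comparison leaves out. Ptgs2os, a noncoding gene on the strand opposite Ptgs2 whose start lies 68 bases from that of Ptgs2 (chr1:150074873-150099963), had a mean level of 10.57 CPM over the 6 libraries. It stood at 8.88, 12.8 and 9.47 CPM in acLDL-low replicates 1 to 3 and 10.2, 14.6 and 7.45 CPM in the acLDL-high libraries. Ptgs2os2 (chr1:150159043-150164948), a second noncoding gene named for Ptgs2, had a mean level of 3.653 CPM, with 2.96, 4.44 and 2.83 CPM in acLDL-low and 3.58, 5.01 and 3.10 CPM in acLDL-high libraries. Both were highest in replicate 2, as Ptgs2 was, and in a fit over all genes of the matrix both differed between replicate numbers (edgeR adjusted p = 0.000292 and 0.000791). In that fit 11013 of 16232 genes differed between replicate numbers, so nothing is read from these 2 calls. Between the sorted populations the log2 differences were 0.03 ± 0.10 and 0.20 ± 0.11 (SE, edgeR adjusted p = 0.911 and 0.356). The exons of Ptgs2os and Ptgs2 do not overlap. Both noncoding genes lie outside the rule for named genes and were picked after their values were seen.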

How the results depend on the processing

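Of the 12572 genes tested, 597 differed between the sorted populations with the replicate block. With no replicate block 0 of 12329 genes and 0 pathway genes passed edgeR's test (45 genes at an unadjusted p under 0.05), where DESeq2 with the block called 468 genes and 1 pathway gene (Acsl4). No low-count filter gave 932 genes, and an adjusted p under 0.01 gave 199 genes and 0 of the 3 pathway genes. Leaving out 1 replicate number at a time gave 126 to 869 genes, 0 to 4 pathway genes and 6034 to 8213 genes that differed between replicate numbers (9802 with all). The lowest counts of the first 2 came without replicate 3 and of the last without replicate 2. The log2 differences of the members kept their direction under every alternative for Aloxe3 (-0.84 to -0.28), Ptgs1 (0.30 to 0.38), Ptgs2 (0.45 to 0.58) and Ptges (0.11 to 0.41), and Alox12b ranged from -0.11 to 0.71. DESeq2's size factors moved the median of all genes by 0.00298 (log2). Depth limits Alox12, Alox12b, Alox12e, Alox15 and Alox5, and the 3 replicates limit the others.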
